A study of Mus musculus with 6 samples.

Results

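The BCL2 family sets whether the outer membrane of the mitochondrion is opened during apoptosis. Its 10 members described here were Bcl2, Bcl2l1, Mcl1, Bax, Bak1, Bid, Bad, Bbc3, Bcl2l11 and Pmaip1, chosen by gene symbol from the 22740 genes of the count table. They fall into 3 roles: 3 anti-apoptotic members, 2 effectors and 5 BH3-only members. All 10 were listed in the table, and 9 had enough counts to be tested.

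The cells were B16, a mouse melanoma line with the labelled genotype BRAFV600E-negative. One group of 3 libraries came from cells given DMSO, the solvent control, and the other group of 3 from cells given 1 uM CX-5461 for 3 days. CX-5461 was developed as an inhibitor of RNA polymerase I and is also known to stabilise G-quadruplex DNA and to trap topoisomerase II. Both groups were the same line grown in the same medium, and nothing in the labels says whether the replicates were separate cultures, so p-values measure only the spread between these libraries, which may be technical.

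In healthy cells the anti-apoptotic proteins BCL2, BCL-XL (encoded by Bcl2l1) and MCL1 hold the effectors BAX and BAK and the BH3-only proteins in a groove on their surface. BH3-only proteins sense damage or loss of growth signals, and they either activate the effectors or occupy that groove. Freed BAX and BAK form pores in the outer membrane, cytochrome c leaks out, and caspases are activated. Much of this control lies in protein binding, turnover and cleavage, which RNA-seq does not measure. In the melanocyte lineage, Bcl2 is known as a target of the lineage factor MITF, and BCL-XL and MCL1 are known survival factors of melanoma cells.

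The members share the BH3 motif, a helix used in binding between them, and its coding bases are shown to set the members side by side. Each run is 30 bases, 5′ to 3′ on the coding strand, from GENCODE M21 transcripts on GRCm38. Capitals mark the codon of the conserved leucine and the paired codons for a small residue and the aspartate that follows it.
Bcl2: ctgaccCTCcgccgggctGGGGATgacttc
Bcl2l1: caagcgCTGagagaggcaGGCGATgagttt
Mcl1: gagaccCTGcggcgcgtgGGCGACggcgtg
Bax: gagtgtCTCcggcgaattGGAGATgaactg
Bak1: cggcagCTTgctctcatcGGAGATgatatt
Bid: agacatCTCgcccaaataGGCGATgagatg
Bad: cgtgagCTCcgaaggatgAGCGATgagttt
Bbc3: gcccagCTGcggcggatgGCGGACgacctc
Bcl2l11: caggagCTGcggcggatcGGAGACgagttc

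The leucine and aspartate codons were found in all 9 shown, since they were searched for, with glycine, serine or alanine as the small residue. Pmaip1 held 2 matches in the same search, and its bases are not shown. The small residue was glycine in 7 of the 9, serine in Bad and alanine in Bbc3, which encodes PUMA. The runs lie at chr1:106712578-106712607 and chr2:152829700-152829729 for the first 2 anti-apoptotic members, at chr3:95659430-95659459 for Mcl1, and at chr7:45466000-45466029 and chr17:27022534-27022563 for the effectors. Those of the BH3-only members lie at chr6:120897292-120897321, chr19:6950786-6950815, chr7:16313767-16313796 and chr2:128147144-128147173, in the order printed. The BH3 core began at residue 94 of 236 in the longest annotated Bcl2 product and at residue 63 of 192 in that of Bax.

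The count totals ran from 17573990 to 20198979 in the DMSO libraries and from 17877481 to 22908309 in the CX-5461 libraries. Levels are given as CPM, counts scaled to a common library size, and changes as log2 of CX-5461 over DMSO with the standard error (SE) of edgeR's quasi-likelihood fit. The test was passed at a Benjamini-Hochberg adjusted p below 0.05 over 12198 genes. Melanocyte markers summed to 22078 to 22929 CPM in DMSO and 28253 to 30557 CPM in CX-5461. Leukocyte markers summed to 11.0 to 11.9 and 15.6 to 17.7 CPM, with Cd3e at 0. Fibroblast markers summed to 12.5 to 16.5 and 30.8 to 34.3 CPM, and endothelial and keratinocyte markers stayed below 0.3 CPM. Of the fibroblast markers, the mean of Col1a2 was 2.22 CPM in DMSO and 25.1 in CX-5461, that of Col1a1 6.94 and 2.81 and that of Pdgfra 5.80 and 4.51, with Dcn at 1 count or fewer in a library. The share of counts from mitochondrial genes was 1.70 to 1.84% in DMSO and 2.70 to 3.40% in CX-5461. On the component with 2.83% of the variance, CX-5461 replicate 2 lay at -15.5, against 8.49 and 6.91 for the other CX-5461 libraries. The part of marker, mitochondrial and library differences in the family's values was not tested.

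Most of the family was higher after CX-5461, including all 3 anti-apoptotic members, although the call of Bcl2 ended in one alternative given with that gene. Of the 9 tested, 6 rose, 1 fell and 2 did not pass, which is 77.8% called. Over all genes tested, 73.7% were called, 37.2% higher and 36.5% lower, so the called share of the family was near that of the transcriptome. The median log2 change was 0.54 over the 9 members and -0.005 over all genes. Libraries of the groups did not overlap for 6 members, 5 higher and 1 lower, against 76.2% of all genes. In bulk RNA, fewer cells that express a gene and less RNA of it per cell cannot be told apart.

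**Figure D1:**
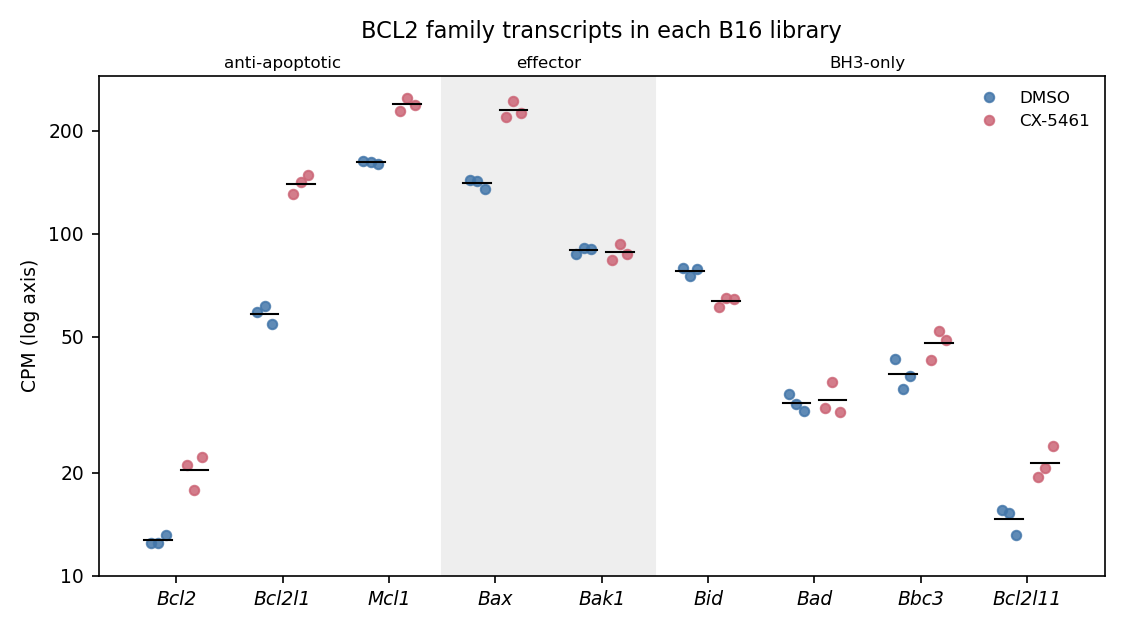
CPM on a log axis for the 9 members with counts, 1 point per library (DMSO blue, CX-5461 red) and a line at each group mean, grouped by role. The red points lie above the blue ones for Bcl2, Bcl2l1, Mcl1, Bax and Bcl2l11 and below them for Bid, and the groups overlap for Bak1, Bad and Bbc3.

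Among the anti-apoptotic members, Bcl2l1 changed most and Mcl1 was the most abundant. Bcl2l1 encodes BCL-XL, which guards the outer mitochondrial membrane, and lies on the minus strand at chr2:152780668-152831728. Its level was 59.0, 61.4 and 54.6 CPM in DMSO and 130.2, 141.6 and 148.7 CPM in CX-5461. Every treated library was more than 2 times the highest control, with no overlap. The means were 58.3 ± 3.49 and 140.2 ± 9.32 CPM (SD, n = 3), a log2 change of 1.26 ± 0.06 (SE), or 2.40-fold, with edgeR adjusted p = 4.877e-11. Of all genes tested, 10.6% changed by more than Bcl2l1 in either direction.

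Mcl1 encodes a short-lived protein that binds BAK and BIM, and spans chr3:95658788-95663176 on the plus strand. The libraries held 163.5, 162.3 and 160.3 CPM in DMSO and 228.7, 249.3 and 238.1 CPM in CX-5461. The controls lay close together and all treated libraries lay above them. Mcl1 rose by 0.56 ± 0.05 on the log2 scale, 1.47-fold, from 162.0 ± 1.62 to 238.7 ± 10.3 CPM (edgeR adjusted p = 2.231e-08).

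Bcl2, the founding member, binds BAX and BIM and sits on mitochondria and the endoplasmic reticulum. It was the longest gene of the family, 176 kb on the minus strand at chr1:106538178-106714274. Its level was low, at 12.5, 12.5 and 13.1 CPM in DMSO and 21.1, 17.8 and 22.2 CPM in CX-5461. The groups did not overlap, and CX-5461 replicate 2 was the lowest treated library. Bcl2 rose from 12.7 ± 0.386 to 20.4 ± 2.32 CPM, a log2 change of 0.69 ± 0.09, or 1.61-fold (edgeR adjusted p = 8.713e-06). With an offset that removes the trend of change with gene span in each library, the change of Bcl2 was 0.11 with edgeR adjusted p = 0.263, so its call ended and 5 members rather than 6 were higher. Without CX-5461 replicate 2 it was 0.77. Exons of D630008O14Rik on the opposite strand overlap 6.09% of its exonic bases.

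The span of a gene moved with its change across the transcriptome. The median log2 change was -0.07 for genes of up to 10 kb and 0.32 for the 1033 genes of 100 to 200 kb, the class that holds Bcl2. It reached 1.11 for the 557 genes over 200 kb, of which 87.6% were called higher. Mcl1 (4.39 kb) and Bax (5.20 kb) lay in the shortest class, with log2 changes above its median. Bcl2l1 (51.1 kb) lay in the class of 50 to 100 kb, whose median was 0.04.

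**Figure D2:**
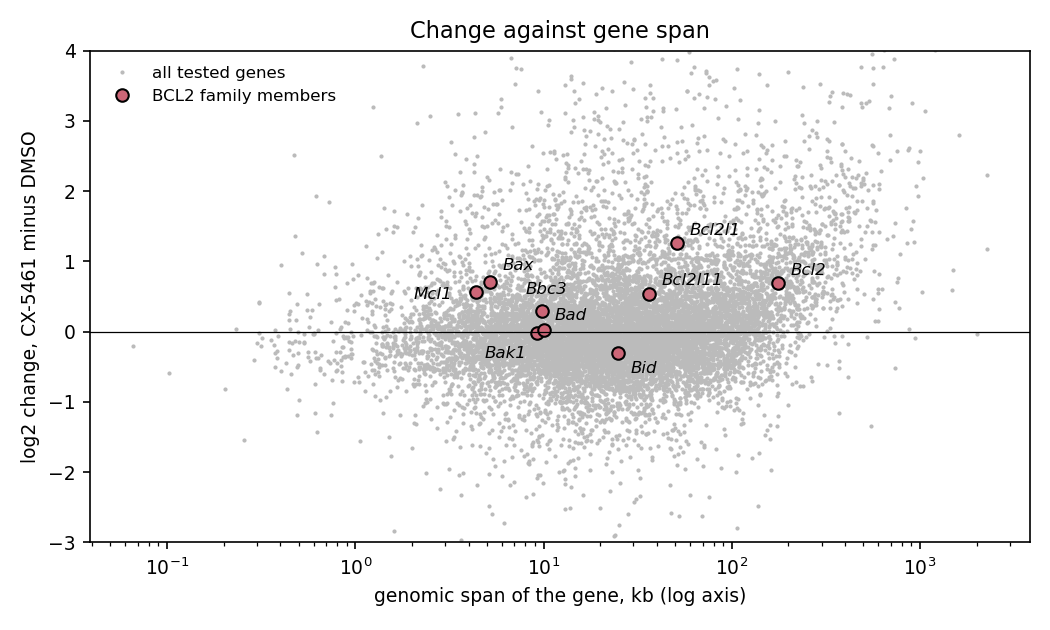
Log2 change (CX-5461 over DMSO) against the genomic span of each tested gene in kb on a log axis, with all genes in grey and the 9 members in red; 70 genes lie outside the drawn range of -3 to 4. Bcl2 sits at 176 kb among long genes that were mostly higher, while Mcl1 and Bax sit at under 6 kb, above the median of -0.07 for genes of up to 10 kb.

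Of the effectors, Bax rose and Bak1 did not pass the test, and the difference between the 2 was not tested. Bax encodes the effector that moves from cytosol to mitochondria, and lies on the minus strand at chr7:45461697-45466898. It stood at 143.2, 143.0 and 135.5 CPM in DMSO and 219.5, 244.3 and 225.0 CPM in CX-5461. All treated libraries were above all controls. Its mean went from 140.6 ± 4.41 to 229.6 ± 13.1 CPM, a log2 change of 0.71 ± 0.05, or 1.63-fold (edgeR adjusted p = 4.507e-09). An annotated gene on the same strand, Gm45808, shares 12.2% of the exonic bases of Bax, and how such reads were assigned is not given in the sources used here.

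Bak1 encodes the effector that resides in the outer membrane, and lies on the minus strand at chr17:27019810-27029009. It held 87.3, 91.1 and 90.3 CPM in DMSO and 84.0, 93.3 and 87.4 CPM in CX-5461. The treated libraries lay on both sides of the controls. The means were 89.6 ± 1.99 and 88.2 ± 4.72 CPM, a log2 change of -0.02 ± 0.05 (edgeR adjusted p = 0.695), and its sign turned in some alternatives. Exons of the 2 annotated genes named Ggnbp1 on the opposite strand overlap 18.2% and 7.35% of the exonic bases of Bak1, and whether the counting used strand is not given in the sources used here.

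The BH3-only members moved apart: Bcl2l11 and Bbc3 rose, Bid fell, Bad did not pass, and Pmaip1 was not detected. Bcl2l11 encodes BIM, which binds all anti-apoptotic members and activates the effectors, and lies on the plus strand at chr2:128126038-128162547. Its level was 15.6, 15.3 and 13.2 CPM in DMSO and 19.5, 20.7 and 24.0 CPM in CX-5461. The groups did not overlap. Bcl2l11 went from 14.7 ± 1.30 to 21.4 ± 2.35 CPM, a log2 change of 0.54 ± 0.10, or 1.46-fold (edgeR adjusted p = 0.0001278).

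Bbc3 encodes PUMA, a classical p53 target that binds every anti-apoptotic member, and lies on the plus strand at chr7:16308393-16318205. Its libraries held 43.1, 35.1 and 38.4 CPM in DMSO and 42.6, 51.8 and 48.9 CPM in CX-5461. The lowest treated library lay just below the highest control, so the groups overlapped. It passed the test all the same, from 38.8 ± 4.00 to 47.8 ± 4.72 CPM, a log2 change of 0.30 ± 0.08, or 1.23-fold (edgeR adjusted p = 0.004261). Of all genes tested, 59.2% changed by more than Bbc3.

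Bid, whose protein is cut by caspase-8 to its active form, was the only tested member called lower. It lies on the minus strand at chr6:120891930-120916853. Bid stood at 79.5, 75.3 and 78.7 CPM in DMSO and 60.8, 64.8 and 64.5 CPM in CX-5461. All treated libraries were below all controls. It went from 77.8 ± 2.23 to 63.4 ± 2.20 CPM, a log2 change of -0.30 ± 0.05, or 1.23-fold lower (edgeR adjusted p = 8.186e-05). Of its exonic bases, 17.7% overlap Bcl2l13 on the opposite strand, itself at a log2 change of -0.40.

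Bad encodes a BH3-only protein that survival kinases hold inactive by phosphorylation, and lies on the plus strand at chr19:6941861-6951899. The libraries held 34.0, 31.7 and 30.3 CPM in DMSO and 30.9, 36.9 and 30.2 CPM in CX-5461. The groups overlapped throughout, and CX-5461 replicate 2 was the highest of all 6. The log2 change of Bad was 0.02 ± 0.08 (edgeR adjusted p = 0.7999), and -0.07 without that library. Exons of Gpr137 on the opposite strand overlap 20.5% of its exonic bases.

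Pmaip1, which encodes NOXA, the BH3-only partner of MCL1 and another classical p53 target, had 0 counts in all 6 libraries. A count of 0 allows up to 3 counts, or 0.135 to 0.173 CPM in a library and 0.0258 CPM over all 116441713 counts. This covers counting error only, and no fold change is given. Of the 15 genes within 1 Mb of it in the table, 7 had over 100 counts in each group, the nearest of them Lman1 at -477.8 kb from start to start, on the side of lower coordinates. The closest on either side, Mc4r and Ccbe1, had 1 count or fewer in each group.

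**Figure D3:**
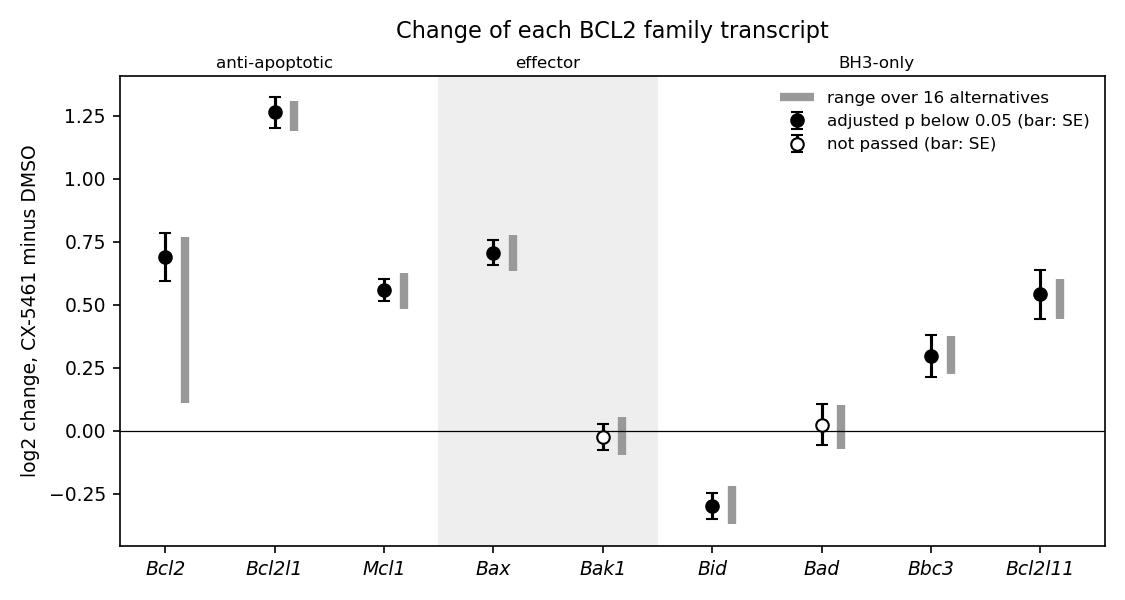
Log2 change (CX-5461 over DMSO) of each tested member with its SE as a bar, filled where the adjusted p was below 0.05, and beside it in grey the range over 16 alternative analyses. The grey range reaches down to 0.11 for Bcl2, stays between 1.19 and 1.31 for Bcl2l1, and spans 0 for Bak1 and Bad.

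Levels of different genes were compared per kb of exonic length, taken as all annotated exons of a gene merged. In DMSO the order of mean CPM per kb was Bax 89.2, Mcl1 47.4, Bak1 37.2, Bid 21.9, Bbc3 18.3, Bcl2l1 12.7, Bad 12.5, Bcl2l11 1.83 and Bcl2 1.38. Only Bcl2l1 and Bad overlapped among neighbours in that order. Bax was thus the most abundant transcript per kb, and Bcl2, the gene the family is named after, the least of those detected. The top place depends on the length used. Without division by length, the mean of Mcl1 exceeded that of Bax, at 162.0 against 140.6 CPM in DMSO. In CX-5461 the means were 238.7 and 229.6 CPM, with overlapping libraries.

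In CX-5461 the order was Bax 145.7, Mcl1 69.8, Bak1 36.7, Bcl2l1 30.6, Bbc3 22.5, Bid 17.9, Bad 12.8, Bcl2l11 2.66 and Bcl2 2.22 CPM per kb, with Bcl2l11 and Bcl2 overlapping. Bcl2l1 thereby passed Bid and Bbc3 and stood apart from Bad, while the 3 most abundant members kept their places. Per kb, Mcl1 exceeded Bcl2l1 3.73-fold in DMSO and 2.29-fold in CX-5461.

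Summed by role over the chosen members only, the anti-apoptotic transcripts had the largest ratio to control of the 3 roles. Their sum went from 61.5 ± 1.11 to 102.6 ± 4.40 CPM per kb (n = 3), 1.67 times the control. That of the effectors went from 126.4 ± 2.63 to 182.3 ± 10.2, 1.44 times, with Bax higher and Bak1 near its control level. The BH3-only sum was 54.6 ± 3.03 in DMSO and 55.8 ± 4.00 in CX-5461, and its libraries overlapped, with the higher Bbc3 and Bcl2l11 set against the lower Bid. Relatives outside the chosen members were left out of the sums. Among them was the anti-apoptotic Bcl2l2, at 10.3 CPM per kb in DMSO and 11.2 in CX-5461. Of BH3-only relatives, Bmf was at 4.90 and 4.03 and Hrk at 1.56 and 0.955 CPM per kb, both called lower. The ratios to control thus hold for the chosen members only.

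The ratio of the effector sum to the anti-apoptotic sum was 2.05, 2.07 and 2.05 in DMSO and 1.78, 1.83 and 1.71 in CX-5461. All treated libraries lay below all controls, and the mean was 13.5% lower. Without division by length it was 0.988 and 0.796. The BH3-only to anti-apoptotic ratio was 0.933, 0.836 and 0.892 in DMSO and 0.530, 0.564 and 0.536 in CX-5461, again with no overlap, and its mean was 38.8% lower.

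Single pairs moved differently. The ratio of Bax to Bcl2l1 per kb was 7.02 ± 0.229 in DMSO and 4.78 ± 0.328 in CX-5461, with log2 changes of 0.71 for Bax and 1.26 for Bcl2l1. The ratio of Bax to Bcl2 was 64.5 ± 3.91 and 66.4 ± 11.7, a difference smaller than its spread. Bbc3 over Bcl2l1 was 1.44 and 0.736. The sums and ratios are descriptions of transcripts and were not tested.

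**Figure D4:**
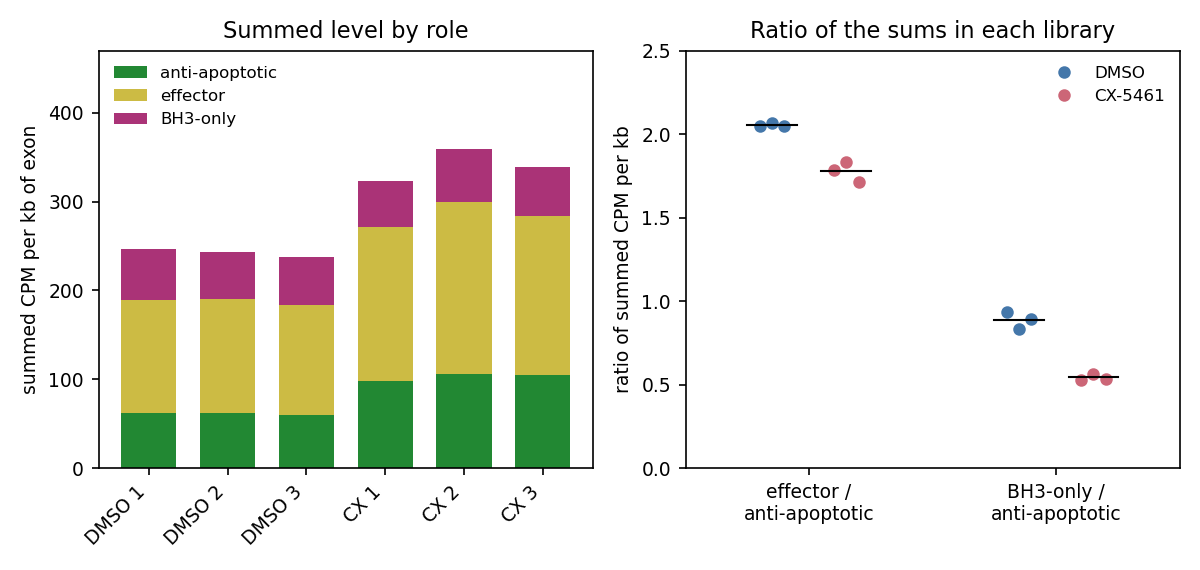
Left, stacked bars of CPM per kb of exon summed over the anti-apoptotic, effector and BH3-only members in each library; right, the ratios of the effector and BH3-only sums to the anti-apoptotic sum, with a line at each group mean. The bars are taller in CX-5461 while the BH3-only segment keeps its size, and both ratios are lower in every CX-5461 library.

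Of 15 other relatives, among them anti-apoptotic and BH3-only genes outside the chosen members, 8 were tested: 5 fell, 1 rose and the test was missed by 2. Their median log2 change was -0.29, and 75% of them were called, against 73.7% of all genes (36.5% lower). Bnip3, a mitophagy receptor with a BH3-like segment, went from 124.3 ± 10.7 to 58.8 ± 12.0 CPM, a log2 change of -1.09 ± 0.10 (edgeR adjusted p = 1.205e-07). Bmf, a BH3-only gene tied to the cytoskeleton, changed by -0.28 ± 0.07 (edgeR adjusted p = 0.002248). Bcl2l2, which encodes the anti-apoptotic BCL-W, did not pass, at 0.12 ± 0.06 (edgeR adjusted p = 0.08113), and Bok, a BAX-like effector near the detection limit, had -0.19 ± 0.45.

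Downstream of the pore, 14 genes were tested, of which 5 rose, 4 fell and 5 missed the threshold. Their median was 0.09, and 64.3% of them were called, against 73.7% of all genes. Apaf1, the scaffold of the apoptosome, rose by 0.41 ± 0.05 (edgeR adjusted p = 1.241e-06), and Casp9, the caspase it activates, changed by -0.21 ± 0.06 (edgeR adjusted p = 0.003872). With the gene-span offset Apaf1 was at 0.19, and the call of Casp9 ended, at -0.13 (edgeR adjusted p = 0.05224). Cycs, which encodes cytochrome c, had -0.18 ± 0.14 and did not pass. Cycs has processed copies in the genome, so its counts are uncertain.

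Genes that act on the stability or activation of the members numbered 13. Of these 5 rose and 3 fell, none by 2-fold or more, and 5 missed the threshold. The called share was 61.5%, below the 73.7% of all genes. Of 15 listed transcription factors known to act on members, 13 were tested, with 5 higher, 7 lower and 1 not called, or 92.3% called against 73.7% of all genes (37.2% higher and 36.5% lower). Mitf rose 4.53-fold (log2 2.18 ± 0.05, or 1.495 with the gene-span offset) and E2f1, which can induce BH3-only genes, 4.98-fold (2.32 ± 0.09). Trp53 changed by -0.52 ± 0.05, Atf4 by -1.01 ± 0.04 and Ddit3, the stress factor CHOP, by -1.91 ± 0.06.

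Of 20 other targets of p53, 12 rose, 4 fell and 4 missed the threshold. The median of the 20 was 0.69 on the log2 scale, and 80% of them were called, against 73.7% of all genes (37.2% higher and 36.5% lower). Mdm2 was at 1.10, Cdkn1a at 1.29, Btg2 at 1.11, Phlda3 at 1.57, Plk2 at 1.67, Ccng1 at 2.12, Gtse1 at 2.31 and Fas at 3.05. Gadd45a was at -2.02 and Plk3 at -1.40. Those named changed by at least 2-fold, and the other listed targets changed by less. Beside the median of 0.69 for the 20, the 3 classical p53 targets of the family gave 0.71 for Bax, 0.30 for Bbc3 and no counts for Pmaip1.

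**Figure D5:**
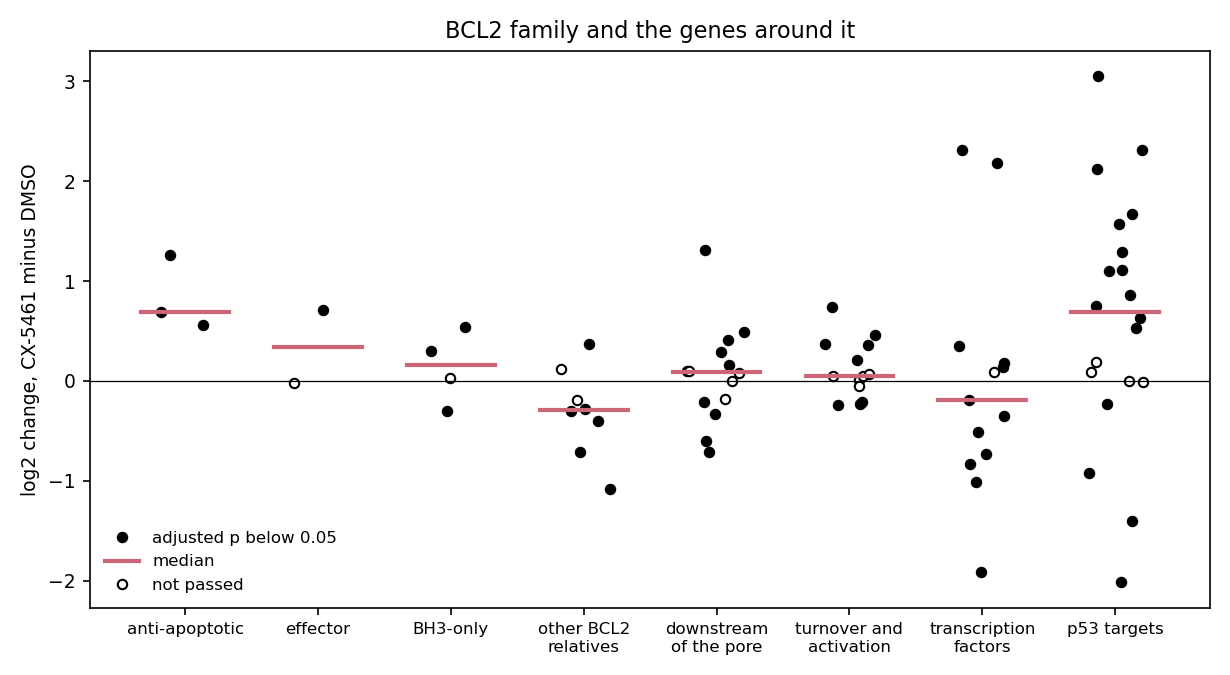
Log2 change (CX-5461 over DMSO) of every tested gene in the 3 roles of the family and in 5 lists around it, filled where the adjusted p was below 0.05, with a red line at each median. The medians run from -0.29 for the relatives to 0.69 for the anti-apoptotic members and for the p53 targets.

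The bases before the starts of Bax and Bcl2 are shown because these were the members that rose and held matches to a searched motif in their single annotated window. Both are 250 bases from RefSeq on GRCm38.p6, 5′ to 3′ on the minus strand, at chr7:45466899-45467148 and chr1:106714291-106714540. Capitals mark the matches, a p53 half-site and CACGTG in Bax and runs of CCC in Bcl2.
Bax: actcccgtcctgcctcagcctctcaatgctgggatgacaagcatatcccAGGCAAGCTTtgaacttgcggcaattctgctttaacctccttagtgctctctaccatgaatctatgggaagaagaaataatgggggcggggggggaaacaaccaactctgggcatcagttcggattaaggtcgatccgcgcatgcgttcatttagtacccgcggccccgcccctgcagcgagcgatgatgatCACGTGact
Bcl2: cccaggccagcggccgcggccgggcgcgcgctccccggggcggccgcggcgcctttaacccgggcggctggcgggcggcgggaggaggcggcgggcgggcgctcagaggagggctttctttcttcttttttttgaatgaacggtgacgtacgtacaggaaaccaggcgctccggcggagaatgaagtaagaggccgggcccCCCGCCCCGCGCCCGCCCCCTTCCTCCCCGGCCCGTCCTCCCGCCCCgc

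Of the 10 members, 9 matched RefSeq windows of 300 bases, 250 before and 50 after a start, 15 windows in all. Searched on both strands were the MITF M-box TCATGTG, the palindromic E-box CACGTG, the p53 half-site of 10 bases, the stress element TGATGNAA, the E2F sites TTTCCCGC or TTTCGCGC, and 4 runs of GGG joined by loops of 1 to 7 bases. Among 32851 windows of the same length they matched in 3.77%, 7.15%, 8.36%, 3.97%, 1.37% and 18.5%, in that order. None of the matches of different motifs overlapped in the member windows.

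Bax held 1 p53 half-site at position -201 and the E-box at -9 and again at 36. The Bcl2 window held G runs on the strand opposite to the gene, from position -49. Bbc3, with 3 windows, held G runs and 1 E-box, and Bcl2l1, with 3 windows, held 1 E2F match. The windows of Mcl1, Bak1, Bid, Bad and Bcl2l11 held none of these letters, which says nothing of the factors themselves.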

How the data were processed

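RNA-seq counts per gene of 3 DMSO and 3 CX-5461 libraries of B16 cells were used as the authors deposited them, as raw whole-number counts, with the genome builds GRCm38 and mm10 named per the submitters' processing notes. For the aligner, the counting program and the strand setting, nothing was given in the sources used here. Library totals ran from 17573990 to 22908309 counts. Gene coordinates and exonic lengths came from GENCODE M21 (GRCm38), which matched 21919 of the 22740 genes. Genes were kept by filterByExpr, leaving 12198, scaled by TMM and tested with edgeR 4.0.16 (quasi-likelihood F test, Benjamini-Hochberg adjustment over all tested genes) in R 4.3.3. CPM is the count over the TMM-scaled library size, and each SE was obtained from the log2 change and its F statistic.

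Alternatives used DESeq2 1.42.0, limma 3.58.1 (voom), other scalings and filters, a replicate block, offsets for GC content and gene span, and each library left out. All members were named. From the other lists, genes called with a change of at least 2-fold were named, with Trp53, Mitf, Atf4, Ddit3, Mdm2, Cdkn1a, Casp9, Apaf1, Cycs, Bcl2l2, Bok and Bmf whatever their values; some results that this rule takes are not reported here. Bcl2l13, D630008O14Rik, Gm45808, Ggnbp1 and Gpr137 were named for overlapping exons, and Lman1, Mc4r and Ccbe1 for their distance to Pmaip1, after values were seen. Hrk was named for the role sums, also after values were seen. The members and lists were chosen with earlier results of these data known.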

Additional observations from a re-analysis of the deposited data

How the results depend on the processing

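The counts of members called higher (6) and lower (1) were the same in the alternatives run, except that the gene-span offset gave 5 higher, without Bcl2 (log2 0.11, edgeR adjusted p = 0.263). Same-numbered libraries showed little shared deviation: their deviations from the group means correlated at 0.036, 0.0037 and -0.0084 over genes. These values cannot tell whether the cultures were paired. The replicate block left 6 members higher and 1 lower, with 4536 genes higher and 4464 lower against 4538 and 4448 without it. Signs turned in members that did not pass. Bak1 was at 0.055 with the gene-span offset and ran from -0.069 to 0.0055 with 1 library left out. Bad was at -0.050 with library totals only, -0.024 with the GC offset and -0.024 with the replicate block and GC offset, and ran from -0.073 to 0.070 with 1 library left out. Bok ran from -0.56 to 0.33 with 1 library left out. The effector to anti-apoptotic ratio without division by length was 0.988 in DMSO and 0.796 in CX-5461. With library totals only, the BH3-only sum was 56.0 CPM per kb in DMSO and 54.4 in CX-5461, the opposite order. Casp9 lost its call with the gene-span offset (edgeR adjusted p = 0.05224). Bcl2l2 gained one when gene span was offset (edgeR adjusted p = 0.01122) or CX-5461 replicate 2 left out (0.04866). The cause of these shifts was not tested. At this depth a count of 0, as for Pmaip1, allows up to 0.173 CPM in a library.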
